A study of Mus musculus with 24 samples.

Results

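Paneth cells store their antimicrobial products in secretory granules, and 8 genes of that granule were followed here: Lyz1, Mmp7, Itln1 and the alpha-defensins Defa2, Defa17, Defa20, Defa22 and Defa24. They were taken by symbol from a table of 24421 genes, which held all 8. RNA had been measured in epithelial cells sorted from C57BL/6 mice aged 8 to 14 weeks, as cells positive for a Villin-driven tomato reporter and negative for the leukocyte antigen CD45. Villin drives expression throughout the intestinal epithelium, so the sort did not select Paneth cells. Colon and ileum came from the same 12 mice, which gave 24 libraries. KO early mice were studied 2 weeks after chimerism (n = 4, mice 100, 117, 118 and 120) and KO late mice at 8 weeks (n = 3, mice 49, 50 and 57). WT irradiated mice were studied at 8 weeks (n = 2, mice 59 and 61), and WT non-irradiated mice had received no treatment (n = 3, mice 72, 73 and 75). The series title names gut macrophages deficient in IL-10Rα and an IL-22-driven response of the epithelium, while the sample labels say only KO. No chimera made with wild-type cells at 2 weeks is among these samples, so at 2 weeks genotype and time after chimerism cannot be told apart. Values are reads divided by a library's size factor, called normalised reads below, and 1 read was worth 0.698 to 2.22 of them. In bulk RNA, fewer Paneth cells and less of a transcript per Paneth cell cannot be told apart.

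Paneth cells sit at the base of the crypts of the small intestine, between the stem cells, and the healthy mouse colon has almost none. Lyz1 encodes the Paneth cell lysozyme, which cuts the bacterial cell wall, whereas its neighbour Lyz2 encodes the lysozyme of myeloid cells. Alpha-defensins, called cryptdins in the mouse, are small cationic peptides that permeabilise bacterial membranes. They are made as inactive precursors, and Mmp7, the metalloproteinase matrilysin, cleaves them inside the granule. Itln1 encodes intelectin-1, a lectin that binds microbial sugars and that goblet cells can make as well. Wnt signalling through TCF factors drives alpha-defensin and Mmp7 expression in Paneth cells.

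The alpha-defensins are near copies of each other, and the ends of their coding sequences, which hold the mature peptide, show how near. Defa20 is identical to Defa2 over this stretch, and capitals mark each base that an alignment paired with another base of Defa2. The 4 sequences are from the GENCODE M21 transcripts on the build GRCm38 and run to the stop codon.
Defa2: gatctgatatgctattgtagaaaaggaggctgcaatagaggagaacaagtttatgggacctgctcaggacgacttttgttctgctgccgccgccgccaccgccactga
Defa22: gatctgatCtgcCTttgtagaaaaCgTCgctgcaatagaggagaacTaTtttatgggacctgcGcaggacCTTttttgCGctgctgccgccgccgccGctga
Defa17: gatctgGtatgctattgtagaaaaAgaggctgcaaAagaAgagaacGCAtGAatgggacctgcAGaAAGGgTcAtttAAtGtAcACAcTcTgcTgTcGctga
Defa24: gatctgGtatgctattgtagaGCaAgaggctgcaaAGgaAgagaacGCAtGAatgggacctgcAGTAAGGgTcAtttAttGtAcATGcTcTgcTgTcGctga

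Defa22 shares 80.6% of the aligned positions of this stretch with Defa2, Defa17 67.6% and Defa24 64.8%. Over the whole coding sequence Defa2 and Defa20 differ at 1 of 288 positions, and Defa17 and Defa24 are 95.7% identical to each other. Reads were 50 bases long, so each run of 50 bases in a member's transcript was looked up in the transcripts of all other genes. All 377 runs of Defa2 and all 376 of Defa20 occur in another alpha-defensin gene as well. The share is 92.0% for Defa17, 74.9% for Defa22 and 28.1% for Defa24. It is 16.1% for Lyz1, all of it shared with Lyz2, 1.01% for Itln1 and 0 for Mmp7. Defa2 and Defa20 had identical values in all 24 libraries and are 1 measurement, so 7 distinct members remain. The alpha-defensin rows are best read as levels of groups of copies, because the counting could have split or repeated their reads. The reference was not the build used for counting, and these shares describe the reference.

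The promoters of Defa2, Defa20 and Defa22 are near copies as well, and those of Defa2 and Defa22 are shown with a window of Mmp7. Whether their letters bear on the levels measured here was not tested. Defa17 and Defa24 had no match in the promoter sequences. Each sequence is the 250 bases before the start site, from RefSeq on GRCm38.p6, read 5′ to 3′ on the gene's strand. Capitals mark TCAAAG or its reverse complement CTTTGA, the core that TCF factors read.
Defa2, chr8:21378267-21378516, plus strand: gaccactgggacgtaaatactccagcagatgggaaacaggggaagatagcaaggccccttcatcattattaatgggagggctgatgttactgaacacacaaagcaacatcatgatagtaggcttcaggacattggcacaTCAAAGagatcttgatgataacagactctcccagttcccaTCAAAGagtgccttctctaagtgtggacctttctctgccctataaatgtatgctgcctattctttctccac
Defa22, chr8:21162027-21162276, plus strand: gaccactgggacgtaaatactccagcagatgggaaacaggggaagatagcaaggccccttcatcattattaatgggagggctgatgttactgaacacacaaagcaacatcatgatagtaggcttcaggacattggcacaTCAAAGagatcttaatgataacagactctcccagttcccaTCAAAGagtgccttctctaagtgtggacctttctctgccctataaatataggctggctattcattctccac
Mmp7, chr9:7691840-7692089, plus strand: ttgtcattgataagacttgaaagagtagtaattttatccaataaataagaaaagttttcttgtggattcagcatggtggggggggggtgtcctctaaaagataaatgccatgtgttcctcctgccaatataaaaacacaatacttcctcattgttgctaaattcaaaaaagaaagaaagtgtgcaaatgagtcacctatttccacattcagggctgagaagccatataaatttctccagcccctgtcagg

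The Defa20 promoter is identical to that of Defa2 at all 250 positions, and the Defa22 promoter at 245 of them. Each of these 3 promoters holds the core 2 times, from 111 to 106 and from 71 to 66 bases before the start. Of 32851 promoters of this length, 13.8% hold it at least 1 time and 1.37% at least 2 times. The Mmp7 window shown, and those of Lyz1 and Itln1, hold none of these letters. The window of the other annotated Mmp7 start holds the core 1 time, from 246 to 241 bases before that start. A match is a description of letters and not a measured binding site.

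In ileum, the granule genes stood low at 2 weeks in KO mice and were back among the wild-type values in most KO mice at 8 weeks. In KO early ileum 6 of the 7 distinct members lay below every wild-type mouse, and Mmp7 was the exception. Across all genes tested in ileum, 6.15% had KO early values that all lay below all wild-type values. No member passed the test of KO early against WT irradiated, where 0% of all genes did either. The members are described one by one before that test.

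**Figure D1:**
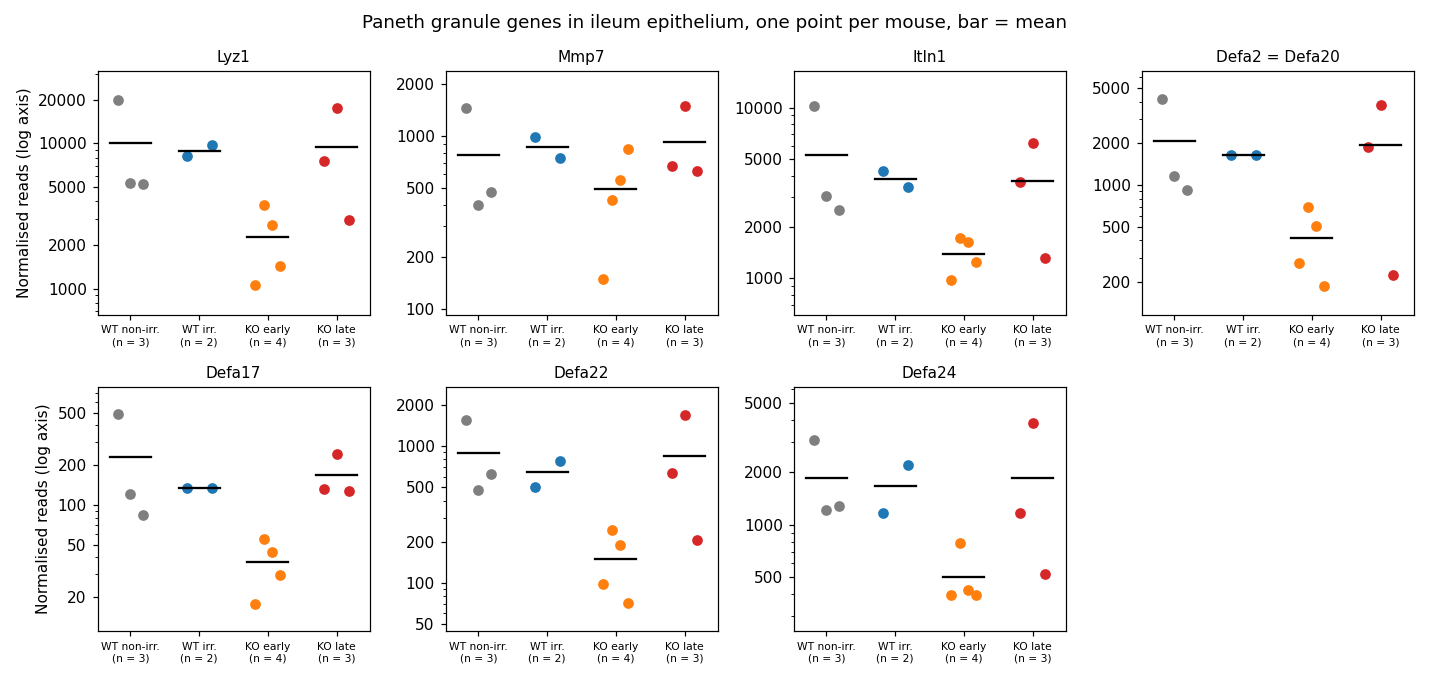
Normalised reads of the 7 distinct granule genes in ileum epithelium on a log axis, with 1 point per mouse, groups on the horizontal axis and a bar at each group's mean. In 6 panels the 4 KO early points lie below all 5 wild-type points, and in the Mmp7 panel they do not; KO late mouse 57 is the lowest KO late point in each panel.

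Lyz1 had 1055, 3763, 2749 and 1439 normalised reads in the ileum of KO early mice 100, 117, 118 and 120. The KO late mice 49, 50 and 57 had 7591, 17648 and 2962, the WT irradiated mice 8136 and 9720, and the WT non-irradiated mice 72, 73 and 75 had 19821, 5343 and 5231. All KO early mice were below all wild-type mice, and KO late mouse 57 lay within the KO early range. Group means were 2251 ± 1241 (SD, n = 4) in KO early, 9400 ± 7508 (n = 3) in KO late, 8928 ± 1120 (n = 2) in WT irradiated and 10130 ± 8391 (n = 3) in WT non-irradiated.

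The shared Defa2 and Defa20 measurement had 274.9, 694.7, 507.8 and 185.8 normalised reads in KO early ileum. It had 1880, 3783 and 225.1 in KO late, 1654 and 1656 in WT irradiated, and 4175, 1159 and 925.5 in WT non-irradiated. Mouse 57 again fell among the KO early values, while the other KO late mice were above both WT irradiated mice. Defa22, the closest relative of Defa2 here, had 97.5, 243.5, 190.4 and 71.0 in KO early and 636.8, 1695 and 207.0 in KO late. Its wild-type values were 506.6 and 782.2 after irradiation and 1554, 475.7 and 626.6 without it. Defa22 thus showed the same order of groups, with mouse 57 once more inside the KO early range.

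Defa17 had 17.7, 55.4, 44.3 and 29.2 normalised reads in KO early ileum against 130.8, 244.4 and 128.2 in KO late. The wild-type values were 133.8 and 133.5 in WT irradiated and 487.9, 120.8 and 83.1 in WT non-irradiated. It was the only member whose KO early and KO late values did not overlap in ileum, a separation that 14% of all genes tested showed in that direction. Defa24 had 394.6, 790.8, 423.2 and 393.4 in KO early and 1164, 3849 and 525.2 in KO late. Its wild-type values were 1165 and 2187 in WT irradiated and 3043, 1217 and 1279 in WT non-irradiated. KO early mouse 117, at 790.8, stood above the other 3 KO early mice, which lay between 393.4 and 423.2, and was still below all wild-type mice.

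Itln1, the lectin gene, had 979.8, 1730, 1628 and 1252 normalised reads in KO early ileum and 3662, 6191 and 1325 in KO late. It had 4236 and 3414 in WT irradiated and 10274, 3051 and 2500 in WT non-irradiated, all above the KO early mice. Mmp7, the enzyme that activates the defensins, had 148.5, 428.4, 559.2 and 844.3 in KO early and 668.8, 1482 and 623.0 in KO late. Its wild-type values were 979.2 and 743.9 after irradiation and 1440, 401.1 and 474.3 without it. For Mmp7 the KO early range overlapped the other 3 groups, and mouse 120, the lowest KO early mouse for Defa2 and Defa22, had the highest KO early value.

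The members were tested with limma on log2(value + 1) over the 12 ileum libraries, with Benjamini-Hochberg adjustment over 19122 genes and calls under 0.05. KO early against WT irradiated gave log2 fold changes of -2.16 ± 0.68 (SE) for Lyz1, -2.22 ± 0.70 for Defa22 and -1.96 ± 0.60 for Defa17, with adjusted p = 0.164 for each. The change was -1.74 ± 0.61 for Defa24 (adjusted p = 0.164), -2.17 ± 0.89 for Defa2 (0.170) and -1.48 ± 0.57 for Itln1 (0.167). Mmp7 had the smallest difference, -1.03 ± 0.62 (adjusted p = 0.286). The median over the 7 distinct members was -1.96, against -0.09 over all genes tested. No member was called by limma, edgeR or DESeq2, and 6 of the 7 had an unadjusted p under 0.05 in limma, as did 4752 of the 19122 genes.

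From 2 to 8 weeks the ileal values ran the other way. KO late against KO early gave 2.22 ± 0.52 for Defa17 (limma, adjusted p = 0.0731), 2.17 ± 0.62 for Defa22 (0.0882) and 1.88 ± 0.60 for Lyz1 (0.104). Defa24 had 1.48 ± 0.54 (adjusted p = 0.136), Defa2 1.67 ± 0.78 (0.204), Itln1 1.19 ± 0.50 (0.173) and Mmp7 1.03 ± 0.54 (0.246). None was called by limma, which called 0% of all genes, or by edgeR. An unadjusted p under 0.05 in limma was found for 5 of the 7 distinct members, beside 4697 of all 19122 genes. DESeq2 on the recovered reads called Lyz1, Defa17, Defa22 and Defa24 higher in KO late, where it called 4.16% of all genes higher. This comparison shares the KO early mice with the one before it. KO late and WT irradiated ileum overlapped for each of the 7 distinct members, and none was called there, where 0% of all genes passed in limma. None of the 7 had an unadjusted p under 0.05 in that comparison, and neither edgeR nor DESeq2 called one.

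**Figure D2:**
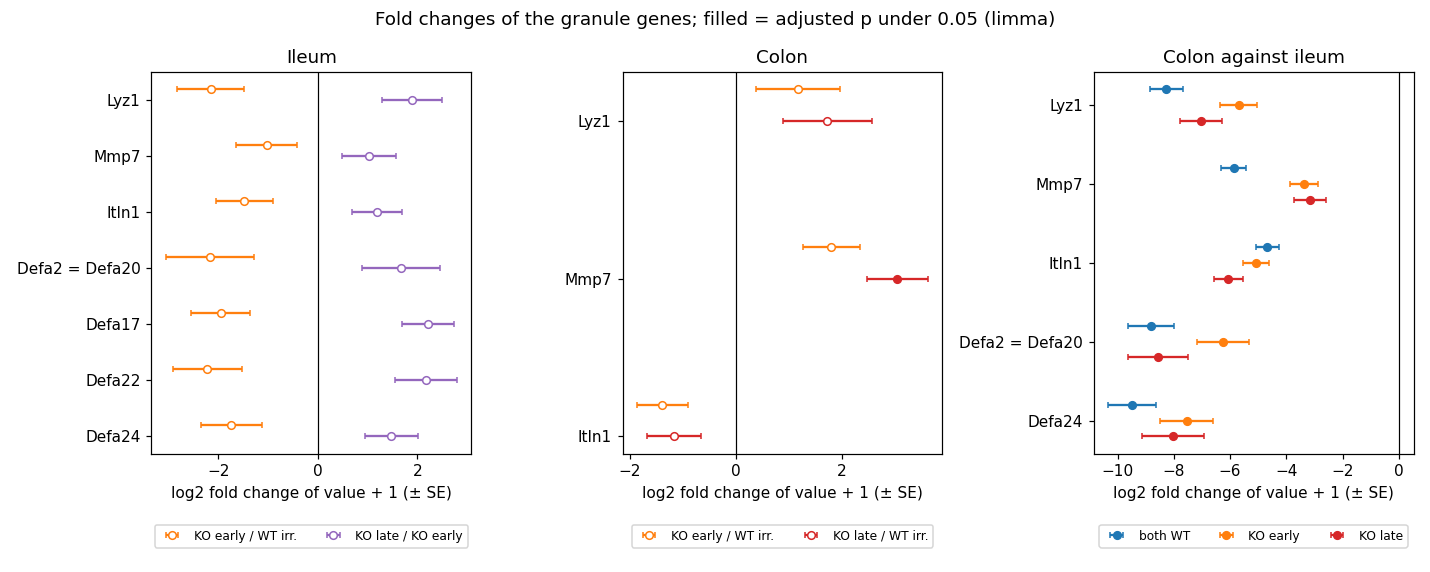
Log2 fold changes of value + 1 with their standard errors for the distinct granule genes in ileum (left), for the 3 members above background in colon (middle) and for colon against ileum (right, without Defa17 and Defa22, which passed the filter on low values only through ileum); filled points passed an adjusted p of 0.05. In the left panel no point is filled, in the middle panel only Mmp7 in KO late is, and in the right panel all are.

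Most other products of the Paneth granule had differences of the same sign in ileum. Of 36 listed genes 35 were in the table and 20 passed the filter on low values. Their median log2 difference was -1.62 for KO early against WT irradiated, with 19 of 20 below 0, and 1.52 for KO late against KO early, with 18 of 20 above 0. None was called by limma or edgeR in either comparison. An unadjusted p under 0.05 in limma was found for 10 and 13 of the 20, beside 4752 and 4697 of all 19122 genes. Of the list, DESeq2 called 2 lower in KO early, where it called 209 of all genes. It called 5 higher in KO late against KO early, where it called 4.16% of all genes higher. Defa5 was an exception in both comparisons, at 0 to 15.5 normalised reads in KO early and 0 in all WT irradiated and KO late mice. Reg3a, a C-type lectin, was lower on average at 8 weeks than at 2 weeks, with 754.2 ± 186.2 in KO early, 517.7 ± 80.3 in KO late and 1070 ± 182.9 in WT irradiated. AY761184, a defensin-like gene, had 96.7 ± 47.1 (n = 4) in KO early, 370.5 ± 283 (n = 3) in KO late and 378.5 ± 86.0 (n = 2) in WT irradiated. These copies share sequence with the members and are not independent of them.

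Of 12 regulators of Paneth cells, none was called by limma or edgeR in ileum in these comparisons. Their median was -0.37 for KO early against WT irradiated. An unadjusted p under 0.05 in limma was found for 2 and 3 of the 12, beside 4752 and 4697 of all 19122 genes. In KO late against KO early DESeq2 called Atoh1 higher and Nod2, an intracellular sensor of bacterial wall fragments, lower, among 1377 genes called. Atoh1, the transcription factor that commits cells to the secretory lineage, had 117.6 ± 37.8 normalised reads in KO early ileum, 277.3 ± 7.48 in KO late and 238.1 ± 56.3 in WT irradiated. Its differences were -1.06 ± 0.33 (limma, adjusted p = 0.164) and 1.30 ± 0.30 for KO late against KO early (adjusted p = 0.0726). Sox9, a Wnt target needed for Paneth cells, differed by -0.26 ± 0.50 (adjusted p = 0.736) and Spdef, which acts in goblet and Paneth cell maturation, by -0.70 ± 0.42 (0.284). Of 8 genes of the Paneth cell surface and stem cell niche none was called by limma, edgeR or DESeq2, with an unadjusted p under 0.05 in limma for 1 in each comparison, and Wnt3, the Wnt ligand that Paneth cells supply, differed by -0.36 ± 0.41 (adjusted p = 0.558).

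Markers of neighbouring cell types and signs of library composition moved with KO early ileum as well. The 8 goblet cell markers had a median of -0.93 against WT irradiated, with 7 of 8 below 0, and a summed level of 60820 to 178200 in KO early against 143000 to 376000 in WT irradiated. The 6 stem cell markers had a median of -0.82, with all 6 below 0, and sums of 3124 to 6044 against 8628 to 9041. The 5 epithelial markers had a median of -0.10. The 10 leukocyte and myeloid markers had a median of 0.54, with 7 above 0, and the 6 colon markers 0.71, with 4 above 0. The 7 ileum markers had a median of -0.35, with 1 above 0. The precursor of ribosomal RNA took 3.81 to 29.4% of reads in KO early ileum, 0.283 to 13.6% in KO late, 0.130 to 0.549% in WT irradiated and 0.448 to 25.4% in WT non-irradiated. Olfactory and vomeronasal receptor genes, which are largely restricted to sensory neurons, took 277 to 712 reads per M in KO early ileum and 167 to 412 in WT irradiated. The part of these differences in the granule gene values was not tested.

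Within the 12 ileum libraries the members varied together from mouse to mouse. As a description, the 15 pairs among the 6 distinct members without Mmp7 had Pearson correlations of log2 values of 0.82 to 0.98 (median 0.94). The 6 pairs with Mmp7 had 0.59 to 0.75. The pairs share their libraries and group differences. In the reference, 5.04% of the read-length runs of Defa2 also occur in Defa17, 2.39% in Defa24 and 0% in Defa22. Of the runs of Defa17, 2.59% occur in Defa24, and of those of Defa22, 0% do. No share is given for Defa17 with Defa22. Each of these defensins also shares runs with alpha-defensin genes outside the members. The part of shared reads in these correlations was not tested. Among 10706 other genes whose mean reached 100 normalised reads, those closest to the members' mean were Defa21 (r = 0.978), Gm15308 and Gm21002 (0.972 each) and Gm14850 and Gm21498 (0.967 each). Gm15308 and Gm21002 had the same range, 73.2 to 1975 normalised reads, and Gm14850 and Gm21498 shared another, 29.2 to 565.8. Whether each pair is 1 measurement was not checked. Gm15308 and Gm14850 are also among the listed granule products. Defa21, another alpha-defensin, ranged from 82.4 to 1754 normalised reads across the ileum libraries.

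The members were set against the tissue as well. Defa17 and Defa22 passed the filter on low values only through ileum, so their direction was fixed by the filter, and they are given as levels. In the 5 wild-type mice limma called Lyz1, Mmp7 and Itln1 lower in colon, over 19588 genes of which 11% were called lower. Their differences on the log2(value + 1) scale were -8.26 ± 0.58 (SE, adjusted p = 2.07e-10), -5.87 ± 0.45 (7.84e-10) and -4.68 ± 0.41 (6.05e-09). Defa2, at -8.82 ± 0.82 (adjusted p = 1.49e-08), and Defa24, at -9.48 ± 0.85 (8.22e-09), were called lower too, but their colon values were at or near 0 and the size of these differences depends on the pseudocount. The same 5 members were called lower in colon in KO early, where 6.43% of genes were, and in KO late, where 17% were. Among Lyz1, Mmp7 and Itln1, the difference nearest 0 was that of Mmp7 in both KO groups (-3.38 ± 0.50 in KO early and -3.16 ± 0.58 in KO late) and that of Itln1 in wild type. Defa17 was at 0 in the colon of all 5 wild-type mice. Against the level that 3 reads would give in each colon library, its ileal value was at least 25.9-fold higher in each of these mice.

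Set against the ileum of the same mouse, colon values were a few percent or less. The median over 12 mice was 0.589% for Lyz1 (range 0.162 to 4.15%), 2.65% for Itln1 (0.888 to 5.82%) and 0.237% for Defa2 (0 to 6.12%). For Mmp7 it was 5.0%, with a range of 0.674 to 23.7%. The highest Mmp7 value belonged to KO late mouse 57, with 147.9 normalised reads in colon and 623.0 in ileum.

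In the colon, Mmp7 was the only member called higher in KO late mice against WT irradiated mice. Of the 5 distinct members tested there, 4 had a positive difference and 1 a negative one. Mmp7 had 80.5, 70.8 and 147.9 normalised reads in KO late mice 49, 50 and 57 and 19.4, 45.7, 59.8 and 44.0 in KO early mice 100, 117, 118 and 120. The wild-type colons had 6.6 and 16.4 after irradiation and 15.3, 6.2 and 17.7 without it. All 7 KO mice were above all 5 wild-type mice, as 1.15% of all genes were, and all KO late mice were above all KO early mice, as 7.29% of all genes were. Means were 99.7 ± 42.0 (SD, n = 3) in KO late, 42.2 ± 16.8 (n = 4) in KO early, 11.5 ± 6.93 (n = 2) in WT irradiated and 13.1 ± 6.07 (n = 3) in WT non-irradiated.

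KO late against WT irradiated gave a log2 fold change of 3.05 ± 0.57 for Mmp7 (limma, adjusted p = 0.0217), in a comparison that called 0.642% of 19145 genes higher. Against both wild-type groups it was 2.95 ± 0.46 (adjusted p = 0.00293, with 1.71% of genes called higher). Mmp7 was the only member called among the 5 distinct members that passed the filter in colon, while Defa17 and Defa22 did not pass it. KO early against WT irradiated gave 1.81 ± 0.54 (adjusted p = 0.396), where 0.204% of genes were called. KO late against KO early gave 1.25 ± 0.48 (adjusted p = 0.438), where 0.00522% were called. No member was called by limma, edgeR or DESeq2 in the last 2 comparisons. An unadjusted p under 0.05 in limma was found for 2 and 1 distinct members, beside 1225 and 2065 of all 19145 genes. The KO late call was lost when any single mouse of either group was left out, with log2 fold changes from 2.46 to 3.65 and adjusted p from 0.0501 to 0.367. It was also lost with the receptor reads as a covariate (1.68 ± 0.76, adjusted p = 0.429). These took 752 to 1052 reads per M in KO late colon against 234 to 592 in WT irradiated, and their part in the result was tested only by that covariate.

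**Figure D3:**
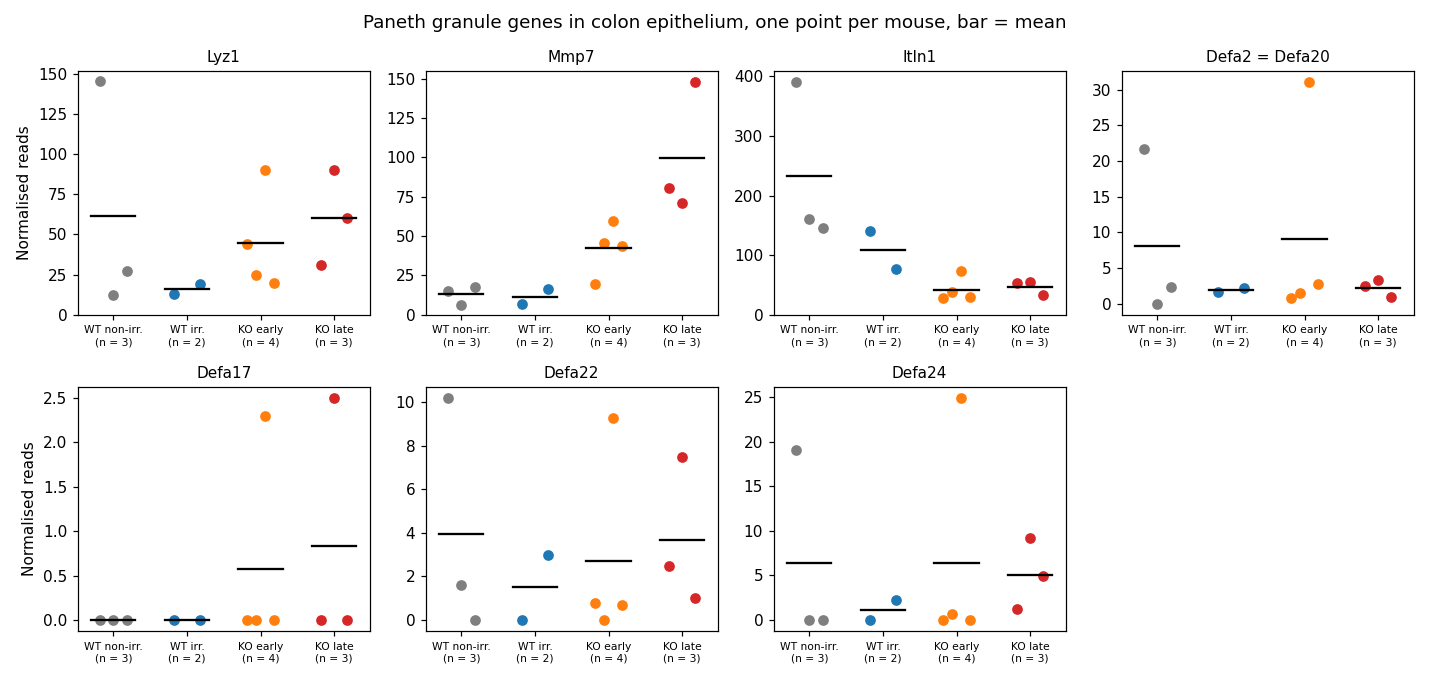
Normalised reads of the 7 distinct granule genes in colon epithelium on linear axes, with 1 point per mouse and a bar at each group's mean. Mmp7 points of all KO mice lie above all wild-type points and Itln1 points below them, while the defensins are at or near 0 except in KO early mouse 118, WT non-irradiated mouse 72 and, at lower values, KO late mouse 50.

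Itln1 stood the other way round in colon. The KO late colons held 53.3, 55.0 and 32.5 normalised reads and the KO early colons 27.8, 39.0, 73.0 and 29.3. It had 140.7 and 76.6 in WT irradiated and 391.2, 160.1 and 145.5 in WT non-irradiated. All 7 KO mice were below all 5 wild-type mice, as 2.39% of all genes were, though mouse 118 at 73.0 was close to the lowest wild-type value of 76.6. Against WT irradiated the differences were -1.17 ± 0.50 in KO late (limma, adjusted p = 0.292) and -1.39 ± 0.48 in KO early (0.520), and neither was called. Against WT non-irradiated they were -2.17 ± 0.45 (adjusted p = 0.0231, with 1.46% of genes called lower) and -2.39 ± 0.42 (0.0203, with 0.256% called lower). With both wild-type groups as the control they were -1.77 ± 0.40 (adjusted p = 0.0253, 2.79% called lower) and -1.99 ± 0.37 (0.0202, 0.606%). The call on Itln1 therefore depends on which wild-type mice serve as the control. Itln1 had a mean of 108.6 ± 45.3 (SD, n = 2) in WT irradiated and 232.3 ± 137.8 (n = 3) in WT non-irradiated colon. The non-irradiated mice were untreated, so against them genotype and chimerism cannot be told apart. Goblet cells can make Itln1, and the 8 goblet cell markers had medians of -0.56 in KO late colon, with 7 of 8 below 0, and -0.64 in KO early, with 5 of 8 below 0. Their summed level was 66490 to 166500 in KO late, 81370 to 212300 in KO early, 150600 to 454600 in WT irradiated and 257200 to 454900 in WT non-irradiated. The 6 colon markers had a median of -0.93 in KO late, with all 6 below 0 and 1 called lower, and of -0.61 in KO early. The part of either list in the Itln1 values was not tested.

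Lyz1 varied widely within each colon group except WT irradiated. KO late colons held 31.0, 89.9 and 60.2 normalised reads and KO early colons 43.8, 24.7, 90.1 and 19.5, beside 13.2 and 19.3 in WT irradiated, and 145.3, 12.4 and 27.3 in WT non-irradiated. All KO early mice lay above both WT irradiated mice, as 7.9% of all genes tested did, with the lowest at 19.5 beside 19.3. The highest value was that of wild-type mouse 72. The differences from WT irradiated were 1.73 ± 0.84 in KO late (limma, adjusted p = 0.313) and 1.17 ± 0.80 in KO early (0.932), and neither was called. With WT non-irradiated mice as the control they were 0.561 ± 0.752 (limma, adjusted p = 0.600) and 0.006 ± 0.704 (0.998). Lyz2, the myeloid lysozyme that shares part of the Lyz1 sequence, had 2.5 to 66.0 in colon, and its highest value was in mouse 118.

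The alpha-defensins stayed near the detection limit in colon, and their values did not follow genotype. Defa17 was at 0 in 10 of 12 colon libraries, with 2.3 normalised reads in mouse 118 and 2.5 in mouse 50, or 3 reads in each. Defa2, Defa22 and Defa24 had 3 reads or fewer in 8 of 12. For Defa2 the KO early mice had 0.8, 1.5, 31.1 and 2.8, the KO late mice 2.5, 3.3 and 1.0, the WT irradiated mice 1.6 and 2.2, and the WT non-irradiated mice 21.7, 0 and 2.4. Defa24 had 0, 0.7, 24.9 and 0 in KO early, 1.2, 9.2 and 4.9 in KO late, 0 and 2.2 in WT irradiated, and 19.1, 0 and 0 in WT non-irradiated. Defa22 had 0.8, 0, 9.3 and 0.7 in KO early, 2.5, 7.5 and 1.0 in KO late, 0 and 3.0 in WT irradiated, and 10.2, 1.6 and 0 in WT non-irradiated. The high values were those of KO early mouse 118 and wild-type mouse 72, and most other mice of both genotypes were at the level of a few reads. Of the defensins that Mmp7 cleaves, Defa2 and Defa24 passed the filter in colon, and neither was called in KO late or KO early.

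Mouse 118 had the highest colon percentage of the 12 mice for the 4 distinct defensins, but not for Lyz1, Itln1 or Mmp7. Its colon values were 6.12% of its ileal value for Defa2, 5.19% for Defa17, 4.88% for Defa22, 5.88% for Defa24, 3.28% for Lyz1 and 4.48% for Itln1. Mptx2, a pentraxin of Paneth cells, stood at 6.29%. The 7 ileal markers spread over 0.460 to 18.3% in the same colon, on both sides of their medians over the 12 mice. Apoa4 (0.544%), Fabp6 (1.01%), Lct (2.23%) and Gata4 (18.3%) were above their medians of 0.2, 0.486, 1.19 and 9.5%. Fabp2 (1.63%), Slc10a2, the ileal bile acid transporter (11.3%), and Sis, the sucrase-isomaltase (0.460%), were below theirs of 3.62, 17.4 and 0.463%. In wild-type mouse 72 Defa2 was at 0.520% and Lyz1 at 0.733%. The percentages also depend on the ileal value. Colon Defa2 was 31.1 normalised reads in mouse 118 and 21.7 in mouse 72, and ileal Defa2 was 507.8 and 4175. Whether RNA or cells of ileum entered these colon samples was not tested.

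**Figure D4:**
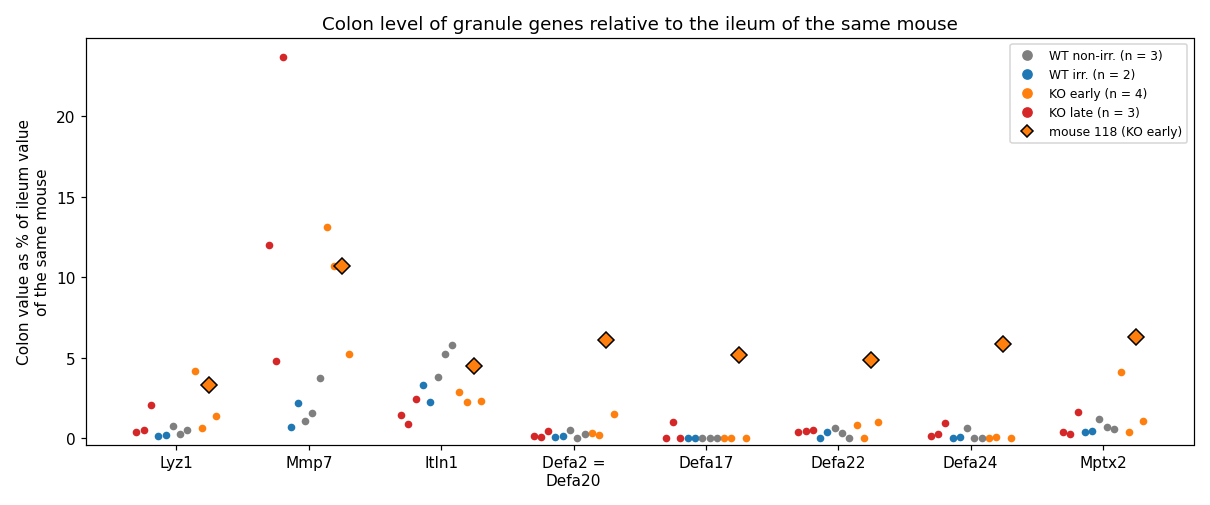
Colon value as a percentage of the ileum value of the same mouse, for the 7 distinct granule genes and the Paneth cell gene Mptx2, with 1 point per mouse coloured by group. Mouse 118 lies between 4.88 and 6.12% for the 4 distinct defensins, above all other mice, and Mmp7 reaches 23.7% in a KO late mouse.

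The difference between the tissues in the change from WT irradiated was tested directly. In KO early this change holds both genotype and time after chimerism. For KO late against WT irradiated, the colonic minus the ileal log2 change of Mmp7 was 3.06 ± 0.92 (limma, adjusted p = 0.358), in a test that called 0.189% of genes. For KO early it was 2.84 ± 0.87 for Mmp7 (adjusted p = 0.360) and 3.33 ± 1.13 for Lyz1 (0.404), where 0.0408% of genes were called. No member passed by limma, edgeR or DESeq2. An unadjusted p under 0.05 in limma was found for 1 and 3 of the 7 distinct members, beside 1078 and 1935 of all 19588 genes. With each mouse as a block, which uses the pairing of colon and ileum by animal, 3 of the members' differences were called higher. These were Mmp7 in KO late (adjusted p = 0.0212, with 0.403% of genes called higher) and, in KO early, Lyz1 (0.0365) and Mmp7 (0.0477), with 0.199% called higher.

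Other granule products in colon split into opposite directions. Of the 35 listed genes with a row, 10 were tested, and in KO late against WT irradiated 1 was called higher and 2 lower. Limma called 0.642% of all genes higher there and 0.387% lower. Pla2g2a, a secreted phospholipase that kills Gram-positive bacteria and whose gene carries a disrupting mutation in C57BL/6 mice, stood at 30.7 ± 6.65 normalised reads in WT irradiated, 178.0 ± 36.1 in KO early and 171.3 ± 72.9 in KO late. It rose by 2.38 ± 0.36 on the log2 scale in KO late (limma, adjusted p = 0.00741) and by 2.49 ± 0.34 in KO early (0.00679). Ang4, an antimicrobial ribonuclease also made by goblet cells, was called lower in KO late, and its colon values in all 7 KO mice, 28.3 to 828.7, lay below the wild-type range of 2686 to 8222. The goblet cell markers given with Itln1 stand beside this result too, and their part in it was not tested. Clps, which encodes the cofactor of pancreatic lipase, fell by 3.58 ± 0.71 in KO late (adjusted p = 0.0305), from 71.9 ± 54.3 to 4.57 ± 2.38. In KO early edgeR called Clps lower, among 32 genes called, and DESeq2 called Clps and Ang4 lower, among 235. Against WT irradiated colon, limma and edgeR called none of the 12 regulators or 8 surface and niche genes in KO late or KO early. An unadjusted p under 0.05 in limma was found for 2 and 1 of the regulators and 2 and 1 of the niche genes. Of all 19145 genes, 3150 and 1225 had one. In KO late DESeq2 called Nod2 higher and Sox9 and Fgfr3 lower, among 805 genes called. Sox9 had 50.5 ± 19.6 in KO late colon against 120.8 ± 45.7 in WT irradiated (-1.26 ± 0.39, adjusted p = 0.175). All 10 leukocyte and myeloid markers had positive differences in KO late colon, with a median of 0.68 and none called, and their summed level was 842 to 1268 against 489 to 741 in WT irradiated. Their part in the colon results was not tested.

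Over the 12 colon libraries each of the 3 members above background had its own nearest genes. Mmp7 was closest to Ceacam12 (r = 0.968), Nucb2 (0.962), Ppfibp1 (0.960), S100a11 (0.956) and Sema3e (0.935), out of 10669 genes whose mean reached 100 normalised reads. The closest to Lyz1 were Csgalnact2 (0.791), Phlda1, Akr1b8, Nod2 and Ankrd22 (0.696), and those to Itln1 were Cd83 (0.873) and 4 protocadherin gamma genes that share exons (0.859 to 0.861). The members themselves were left out of this ranking. In colon Lyz1 correlated at 0.86 with Defa24, 0.73 with Defa22, 0.71 with Defa2, 0.54 with Defa17 and 0.09 with Itln1. The defensins were near the detection limit there. These are descriptions over libraries that share group differences. Lyz1 and Mmp7, at 0.48, were less alike in colon than in ileum, at 0.74, and Mmp7 and Itln1 ran opposite ways in colon (-0.64) and together in ileum (0.73).

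Irradiation and chimerism by themselves, as WT irradiated against WT non-irradiated mice, gave no call among the members in either tissue. Limma called 0% of all genes in colon and 0% in ileum, and no member had an unadjusted p under 0.05. Neither edgeR nor DESeq2 called a member. In colon all 5 distinct members tested had differences below 0, with a median of -0.6 against 0.008 over all genes tested. In ileum 3 were above 0 and 4 below, with a median of -0.07 against 0.023. The WT irradiated group had 2 mice, and the 3 untreated mice spread widely. In ileum, wild-type mouse 72 was the highest wild-type mouse for all 7 distinct members, with 19821 for Lyz1 and 4175 for Defa2, while mice 73 and 75 lay closer to each other.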

How the data were processed

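The table the authors deposited gives a coverage signal for each of 24421 genes in 24 libraries, as reads scaled by a library's size factor and rounded to 1 decimal. The submitters' processing notes name bcl2fastq for demultiplexing, HISAT 0.1.6, HOMER and the build mm9. The labels' protocols name a ribosome-depleted stranded total RNA kit and single-end reads of 50 bases, while the molecule label says polyA RNA. Whether counting used strand, and how reads matching several copies were assigned, the sources used here do not give.

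In each library 99.2 to 100.0% of the low values were whole multiples of the value of 1 read, which gave 8.32 to 18.7 M recovered reads per library. Intervals and floors of 3 reads cover counting error only. The main test was limma 3.58.1 in R 4.3.3 on log2(value + 1), for genes that reached 10 normalised reads in 2 or more libraries of the fit, with a trend and all 4 groups of a tissue, or all 8 groups for comparisons between tissues. Fold changes on this scale understate those of low genes. edgeR 4.0.16 and DESeq2 1.42.0 on the recovered reads were alternatives, beside other pseudocounts, filters, scalings, covariates and controls and leaving out each mouse. The scripts were tested on simulated data. Sequences were compared in Biopython 1.88.

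Colon and ileum libraries with the same number come from 1 mouse per the labels. Deviations from the group means correlated between a mouse's tissues at -0.36 to 0.56 (median 0.22) over 10 mice, above 0.1 in 5. Replicates were separate mice by their numbers, and the chi-square per gene between any replicate pair was 16.5 or more. The text names the 8 members, called genes of each list with at most 3 others in list order, and the 5 genes closest in pattern. Mptx2, Defa5, Reg3a, the ileal markers and genes called by DESeq2 alone were named after their values were seen. The members, lists and tests were chosen with earlier results of these data known.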

Additional observations from a re-analysis of the deposited data

Results flagged for a closer look

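Within the 4 KO early mice, mouse 118 stood above the other 3 in colon for each alpha-defensin. It had 31.1 normalised reads for Defa2 and, as the same measurement, 31.1 for Defa20, with the gap to the next mouse at 0.934 of the group's range. It had 2.3 for Defa17 (gap 1.0), 9.3 for Defa22 (gap 0.914) and 24.9 for Defa24 (gap 0.972). In ileum, mouse 117 stood above the other KO early mice for Defa24, at 790.8 (gap 0.925). Chance flags about 1 in 20 groups of normally distributed values by this rule. The colonic defensin values are a few reads in most mice, so that rate need not hold for them. The Defa17 flag rests on 3 reads in mouse 118 and 0 in the other KO early mice. The defensins are also not independent of each other.

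With each mouse as a block, the change from WT irradiated differed between colon and ileum for Mmp7 in KO late (colonic minus ileal log2 change 3.06). It did so in KO early for Lyz1 (3.33) and Mmp7 (2.84), where genotype and time after chimerism cannot be told apart. Without the block none of the 3 passed.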

How the results depend on the processing

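Of 726 fold changes of members recomputed under alternatives, 709 kept direction and side of the threshold, 11 passed the threshold newly, 6 no longer passed it and none turned direction. The 6 are Mmp7 in KO late colon with receptor reads as a covariate, which left 0 members called higher, and without each mouse of the 2 groups, which gave 0 to 0 members called; a lone remaining WT irradiated mouse is then assumed to vary like the other groups. With WT non-irradiated mice or both wild-type groups as the control, 1 member, Itln1, was called lower in KO late and 1 in KO early colon. DESeq2 called 4 members higher in KO late against KO early ileum. The replicate block by mouse called 1 member higher for the tissue difference in KO late and 2 in KO early, and changed no other call on members between tissues. Fold changes of the other members never passed and are given as levels only; they turned sign in 10 of 39 settings in KO late colon, 2 of 39 in KO early colon, 2 of 66 for KO late against KO early colon, 29 of 120 for KO late against WT irradiated ileum, 3 of 69 (colon) and 23 of 104 (ileum) between the wild-type groups, and 5 of 84 (KO late) and 3 of 90 (KO early) for the tissue differences. Counts of all called genes moved more: in KO late colon 197, with 1 with the receptor covariate, 863 with both wild-type groups as control and 11 to 103 without 1 mouse; in KO early colon 39, with 23 to 240 and, without 1 mouse, 3 to 73. In ileum they were 0 in limma, against 209 with DESeq2 for KO early against WT irradiated and 1377 for KO late against KO early. For KO late against KO early colon the count was 1, with 213 with DESeq2 and 0 to 16 without 1 mouse. For the tissue differences it was 37 in KO late, 130 with the replicate block and 1 to 16 without 1 mouse, and 8 in KO early, 93 with DESeq2 and 1 to 15 without 1 mouse. Between tissues it was 5494 in KO late, with 2582 with the receptor covariate 9632 with the replicate block and 2797 to 3474 without 1 mouse. Depth limits the colonic defensins, where a few reads decide each value.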
